A study of Mus musculus with 8 samples.

Results

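The 10 genes described here encode proteins with which duct epithelium secretes bicarbonate and fluid. They were the rows of the deposited expression table whose gene name is Cftr, Slc4a2, Slc4a4, Slc26a3, Slc26a6, Car2, Sctr, Ano1, Aqp1 or Aqp5, and all 10 of 10 were found among the 31228 genes of that table. RNA was sequenced from 8 mouse samples of strain C57BL/6, namely 1 extrahepatic bile duct epithelium, 1 pancreatic duct epithelium, 3 bile duct organoids and 3 pancreatic duct organoids. Per the labels' protocols, the ducts were dissected and digested with collagenase IV, the epithelia were lysed at once, and the organoids were grown in Matrigel for a few passages. Their medium held EGF, R-Spondin-1, Noggin, FGF10, N-acetylcysteine, nicotinamide and B27, and Wnt3A and the ROCK inhibitor Y27632 were withdrawn once luminal organoids had formed. The groups share the strain, and the labels name no allele or treatment beyond this medium. The labels give no age, do not say whether the 3 organoids of an organ came from separate animals, and do not say how many animals gave an epithelium, so the spread between organoids may be technical.

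Ducts of the liver and pancreas turn a small, chloride-rich primary fluid into a larger, bicarbonate-rich one. Secretin acts on its receptor, raises cyclic AMP and opens the chloride channel CFTR in the luminal membrane, while chloride and bicarbonate are exchanged across the same membrane by transporters of the SLC26 family. Carbonic anhydrase makes bicarbonate inside the cell, SLC4 transporters move it across the cell membranes, and aquaporins let water follow.

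Levels are given as FPKM (reads or read pairs divided by exon length and by the library's total), as deposited, so that genes can be compared per length. Each FPKM value could be turned back into a whole number of reads for all 10 genes (for Aqp5 with an inferred exon length), and the libraries held between 12876470 and 20828217 reads or read pairs. Differences are given on the scale of log2(scaled FPKM + 1), where scaling removes a common shift between libraries, and on it the differences of weak genes come out too small. Where a ratio of reads is given, it is a ratio of RPM (reads divided by the library total) with an exact binomial 95% interval that covers counting error only. Each epithelium is a single library, so no test was made in any comparison with an epithelium. There, a gene is counted as different when the organoid mean lay at least 2-fold from the epithelium on the log2 scale, with all 3 organoids on the same side of it.

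The labelled cell type was checked on markers. Of 10 duct epithelium markers, 0 were under 1 FPKM in all organoids, and their summed level, 2551 FPKM in bile duct epithelium, was 629 FPKM for pancreatic duct epithelium, with organoids at 5523 to 11291. The epithelium libraries also carried RNA of other cells. The 10 acinar enzymes and factors summed to 19262 FPKM in the epithelium of bile duct and 38590 FPKM in that of pancreatic duct, while no organoid exceeded 9.23. For 10 blood endothelium markers the sums were 674 and 1117 FPKM, and no organoid exceeded 2.07. In bulk samples, fewer cells of a type and less RNA per cell cannot be told apart.

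**Figure D1:**
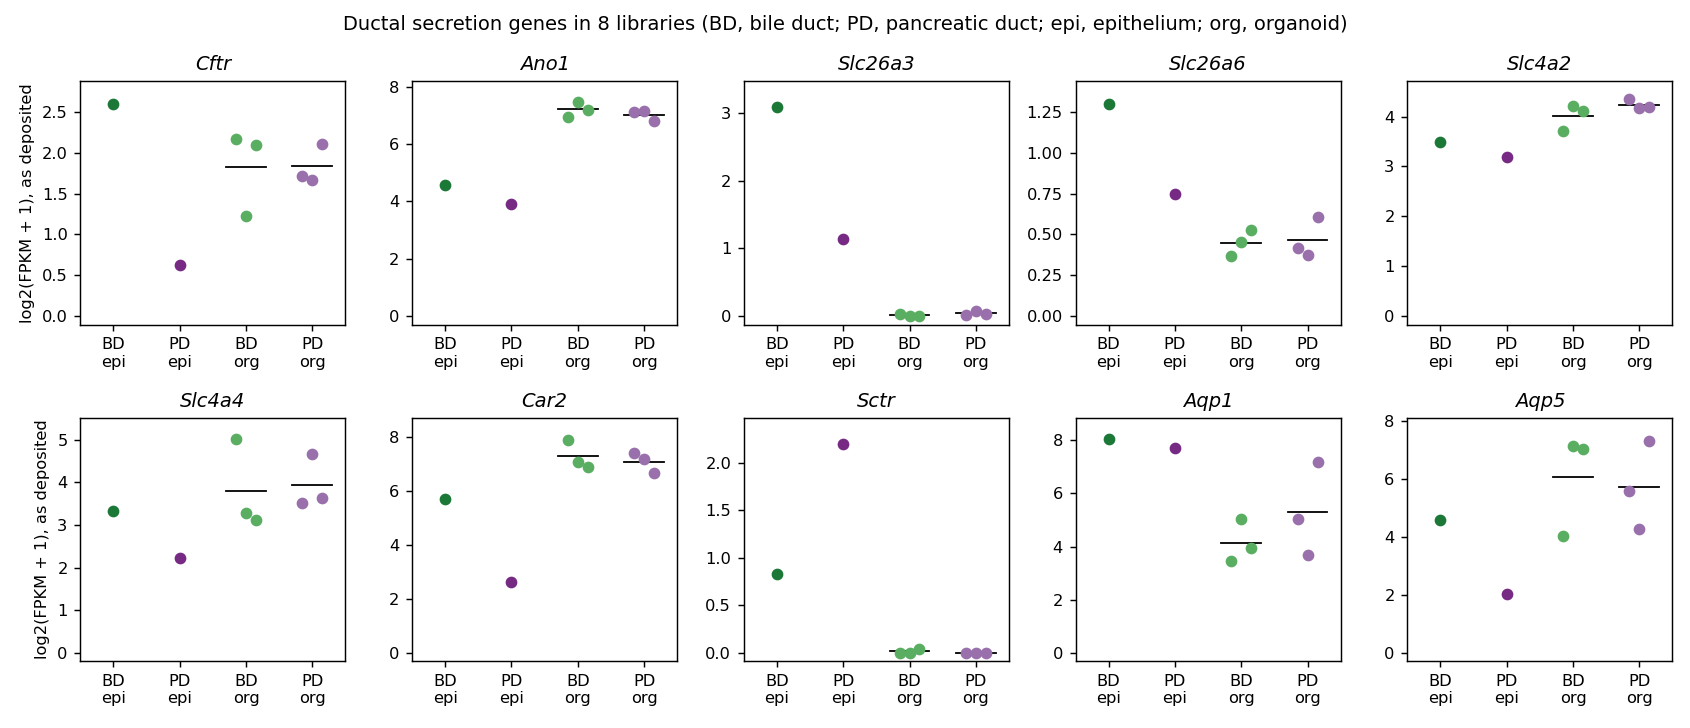
Level of each of the 10 secretion genes in the 8 libraries, as log2(FPKM + 1) of deposited values on axes that start near 0 and differ between genes. Each point is a library, and black lines are means of 3 organoids; Sctr and Slc26a3 lie at or near 0 in all 6 organoids, while Ano1 and Car2 lie above both epithelia in all 6.

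Ano1 and Car2 were higher in all 6 organoids than in both epithelia. Sctr, Slc26a3 and Aqp1 were lower in all 6 organoids than in both epithelia. Slc26a6 was also lower and Slc4a2 also higher in all 6, but by a mean of less than 2-fold on the log2 scale. Cftr lay between the epithelia in every organoid. For 5 of the 10 genes, 2 higher and 3 lower, the mean of the differences in both organs was at least 2-fold and the 6 organoids did not overlap the epithelia. Of 15187 genes 35.7% met this rule, 12.4% higher and 23.3% lower. Single organoids could lie closer than 2-fold to an epithelium. With a pseudocount of 0.1, Slc26a6 also met the rule as lower (-1.48 in place of -0.69). The epithelia come from different organs and are not replicates of a group, so this is a count and not a test.

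Sctr encodes the secretin receptor, the hormone receptor at the head of the pathway (ENSMUSG00000026387, chromosome 1, 120006894 to 120063536). It stood at 0.772 FPKM in bile duct epithelium and 3.60 FPKM in pancreatic duct epithelium, from 20 and 112 reads. The cultures from bile duct were listed at 0, 0 and 0.0270 FPKM (organoids 1, 2 and 3), and all 3 from pancreatic duct at 0. The 6 organoid libraries together held 1 Sctr read.

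Sctr was thus lower in pancreatic duct organoids than in their epithelium by at least 130.01-fold in RPM when its 0 reads are set to a floor of 3 reads over the 3 organoids together, taking the epithelial reads as exact. The lower limit of the exact binomial interval, which also covers the counting error of the epithelial reads, was 104. For bile duct the ratio of epithelium to organoids was 87.3, with an interval of 14.0 to 3618 because it rests on 20 reads against 1. Between the epithelia, Sctr was the only one of the 10 genes with a higher level in pancreatic duct, with an RPM ratio of 4.67 (interval 2.88 to 7.93). Of the 10 duct markers, 8 were at least 2-fold higher in bile duct epithelium and 0 lower, against 9.18% and 4.53% of all genes. Sctr thus differed in the other direction from most of them. Acinar, blood endothelium, red cell and smooth muscle summed levels were also higher in pancreatic duct epithelium, the last at 3500 against 2013 FPKM. Leukocyte markers summed to 380 FPKM there and 614 FPKM in bile duct epithelium. Of the 8, 1 was at least 2-fold higher in pancreatic duct epithelium, the B cell gene Cd79a at 45.1 against 10.8 FPKM. The 2 at least 2-fold lower there were H2-Ab1, at 31.3 against 241 FPKM, and Cd68, at 11.7 against 24.7 FPKM. Fibroblast markers summed to 1686 and 1639 FPKM and hepatocyte markers to 82.5 and 336 FPKM in the same order. The part of these cells in the level of Sctr was not tested.

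Cftr and Ano1 encode chloride channels. CFTR is opened by cyclic AMP and ANO1 by calcium, and CFTR also conducts bicarbonate. Cftr (ENSMUSG00000041301, chromosome 6, 18170687 to 18322768) had 5.04 FPKM in bile duct epithelium and 0.542 FPKM in pancreatic duct epithelium, from 504 and 65 reads. Among the organoids, numbers 1, 2 and 3 from bile duct stood at 3.48, 1.33 and 3.28 FPKM, and those from pancreatic duct at 2.30, 2.18 and 3.33 FPKM. Every organoid therefore lay below bile duct epithelium and above pancreatic duct epithelium, and the organoid groups overlapped. Of the merged exon bases of Cftr, 1.66% also belong to an antisense gene.

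From epithelium to organoid, Cftr was -0.98 ± 0.53 away for bile duct and 1.08 ± 0.21 away for pancreatic duct (log2 scale, SD, n = 3 organoids each). All 3 organoids of bile duct were lower and all 3 of pancreatic duct were higher than their epithelium, a pair of directions found for 2.2% of 14249 genes that passed the level filter in both organs, with the opposite pair found for 1.47%. The bile duct difference did not reach 2-fold, but did so without bile duct organoid 1 (-1.17) or without bile duct organoid 3 (-1.10). The pancreatic duct difference fell short of 2-fold without pancreatic duct organoid 3 (0.96). In RPM, Cftr was 0.526 times its epithelial level in bile duct organoids (interval 0.474 to 0.586) and 4.91 times in pancreatic duct organoids (interval 3.82 to 6.41). The median difference of the 10 duct markers was 1.17 in bile duct and 3.46 in pancreatic duct on the log2 scale, above that of Cftr in both organs.

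Ano1 (ENSMUSG00000031075, chromosome 7, 144588549 to 144751974) had 22.8 FPKM in bile duct epithelium and 14.1 FPKM in pancreatic duct epithelium. For Ano1 the cultures 1, 2 and 3 stood at 124, 179 and 147 FPKM when from bile duct and at 138, 141 and 111 FPKM when from pancreatic duct. The lowest organoid was thus far above both epithelia, and the organoids were 1.62-fold apart at most. The difference from epithelium was 2.39 ± 0.23 in bile duct and 2.84 ± 0.24 in pancreatic duct (log2 scale, SD, n = 3 organoids each). Per length, the median organoid level was 139.7 FPKM for Ano1 and 2.79 FPKM for Cftr.

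Slc26a3 and Slc26a6 encode luminal exchangers of chloride for bicarbonate, the first of them best known from the intestine. Slc26a3 (ENSMUSG00000001225, chromosome 12, 31390871 to 31473917) had 7.55 FPKM in bile duct epithelium and 1.21 FPKM in pancreatic duct epithelium, from 619 and 119 reads. Cultures 1, 2 and 3 from bile duct held 2, 0 and 0 reads of it, and those from pancreatic duct 1, 6 and 2 reads. No organoid exceeded 0.0536 FPKM, and the organoids lay far below either epithelium.

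In RPM, Slc26a3 was 1351-fold higher in bile duct epithelium than in bile duct organoids (interval 372 to 11178) and 46.0-fold higher in pancreatic duct epithelium than in its organoids (interval 23.5 to 103). Between the epithelia it was 6.24-fold higher in bile duct (interval 5.12 to 7.66). Markers of intestinal absorptive cells moved with it, since 10 of 11 exceeded pancreatic duct epithelium at least 2-fold, against 9.18% of all genes. Their sum was 369 FPKM for bile duct epithelium against 55.4 FPKM. In the organoids that list summed to 57.8 to 129 FPKM, of which Vil1 made up 51.0 to 106 FPKM and Cdx2 4.45 to 20.7 FPKM. In bile duct organoids 9 of the 11 were at least 2-fold lower, against 26.1% of all genes, among them Fabp2 (96.0 FPKM in epithelium, at most 0.740 in an organoid) and Alpi (94.6 FPKM, at most 0.0833), and Sis and Apoa4 were at 0 in all 6. In pancreatic duct 7 of the 11 passed the level filter, of which 4 were lower and 2 higher, against 25% and 15.4% of all genes. The higher ones were Vil1 (4.19) and Cdx2 (3.40) on the log2 scale. The part of intestinal cells in the Slc26a3 level was not tested.

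Slc26a6 (ENSMUSG00000023259, chromosome 9, 108853283 to 108913049) was weak throughout. The epithelium of bile duct had 1.46 FPKM and that of pancreatic duct 0.682 FPKM. Cultures 1, 2 and 3 stood at 0.290, 0.370 and 0.442 FPKM when from bile duct and at 0.336, 0.294 and 0.524 FPKM when from pancreatic duct. All organoids lay below both epithelia, but by less than 2-fold on the log2 scale used, at -0.99 ± 0.07 for bile duct and -0.40 ± 0.11 for pancreatic duct (SD, n = 3 each). A pseudocount of 0.1 in place of 1 made the bile duct difference -2.00, and without bile duct organoid 3 it was -1.03. In RPM, bile duct epithelium had 3.97 times the level of its organoids (interval 3.01 to 5.24) and pancreatic duct epithelium 1.73 times (interval 1.23 to 2.39).

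The stretches before a RefSeq start of Cftr, Ano1 and Slc26a3 are shown because these luminal genes took the 3 different courses above. RefSeq start windows on build GRCm38.p6 were found for 8 of the 10 genes. The 250 bases before the start are printed 5′ to 3′ on the gene's strand, at chr6:18170437-18170686 (plus strand) for Cftr, chr7:144738574-144738823 (minus strand) for Ano1 and chr12:31437969-31438218 (plus strand) for Slc26a3. Of these, 0, 19 and 2 bases are annotated as exon of the same gene in GENCODE M21. The Cftr window ends just before the gene span given above, while those of Ano1 and Slc26a3 lie inside their spans. Which start is used in these samples was not tested. Capitals mark every match on either strand to the 7 motifs searched.
Cftr: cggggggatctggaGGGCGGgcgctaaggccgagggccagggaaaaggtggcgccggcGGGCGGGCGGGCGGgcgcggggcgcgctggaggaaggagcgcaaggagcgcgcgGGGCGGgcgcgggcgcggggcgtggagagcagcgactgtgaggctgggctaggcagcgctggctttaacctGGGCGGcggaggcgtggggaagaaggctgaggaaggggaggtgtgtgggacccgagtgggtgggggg
Ano1: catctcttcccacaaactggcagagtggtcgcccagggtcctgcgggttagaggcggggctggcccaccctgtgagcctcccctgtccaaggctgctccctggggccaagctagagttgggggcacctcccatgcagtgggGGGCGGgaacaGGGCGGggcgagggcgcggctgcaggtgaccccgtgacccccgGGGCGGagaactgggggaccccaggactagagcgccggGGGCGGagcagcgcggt
Slc26a3: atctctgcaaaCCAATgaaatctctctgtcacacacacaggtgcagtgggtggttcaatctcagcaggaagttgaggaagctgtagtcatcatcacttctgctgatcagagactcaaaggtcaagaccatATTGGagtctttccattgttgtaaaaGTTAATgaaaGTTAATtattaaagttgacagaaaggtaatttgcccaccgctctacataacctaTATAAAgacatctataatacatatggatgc
The Cftr stretch is 76.4% G and C and the Ano1 stretch 72%, and the GC box GGGCGG matched 6 and 4 times in them, some matches in Cftr overlapping. The Slc26a3 stretch is 38.8% G and C, with a TATA box TATAAA from base -30 to base -25 counted back from the start, the HNF1 core GTTAAT at 2 places and CCAAT at 2. Of 32851 RefSeq windows of the same length, 32.7% held a GC box, 12.4% the TATA box, 6.43% the HNF1 core and 33.8% CCAAT, and the median G and C content was 52.4%. The cyclic AMP response element TGACGTCA, the AP-1 site TGANTCA and the TEAD site CATTCC, present in 1.55%, 6.75% and 12.6% of windows, had no match in these 3 stretches. A match describes the letters only and is not evidence of a bound site.

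Slc4a2, an exchanger of chloride for bicarbonate, kept within 8.16 to 19.3 FPKM over the 8 libraries (ENSMUSG00000028962, chromosome 5, 24423837 to 24440950). It had 10.2 FPKM in bile duct epithelium and 8.16 FPKM in pancreatic duct epithelium. Its organoid levels, in the order of cultures 1, 2 and 3, were 12.1, 17.5 and 16.2 FPKM for bile duct and 19.3, 17.1 and 17.2 FPKM for pancreatic duct. All organoids lay above both epithelia in deposited FPKM. After scaling, the difference from epithelium was 0.27 ± 0.21 for bile duct and 0.78 ± 0.12 for pancreatic duct (log2 scale, SD, n = 3 each), under 2-fold in both organs. On values as deposited the pancreatic duct difference was 1.04 and would count as 2-fold. Of its merged exon bases, 13.7% also belong to genes on the opposite strand, mainly Fastk, and whether reads were counted by strand is not given in the sources used here.

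Slc4a4 encodes a sodium bicarbonate cotransporter that loads duct cells with bicarbonate from the blood side (ENSMUSG00000060961, chromosome 5, 88886818 to 89239653). It had 8.99 FPKM in bile duct epithelium and 3.69 FPKM in pancreatic duct epithelium. Slc4a4 in cultures 1, 2 and 3 was read at 31.5, 8.67 and 7.71 FPKM for bile duct, then at 10.5, 24.6 and 11.5 FPKM for pancreatic duct. One culture of each organ was thus 2-fold or more above the others of its group. The difference from epithelium was 1.48 ± 0.66 in pancreatic duct, with all 3 organoids higher, and 0.24 ± 1.10 in bile duct (log2 scale, SD, n = 3 each). Without bile duct organoid 1 the bile duct value turned to -0.39.

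Car2 encodes the cytosolic carbonic anhydrase that makes bicarbonate from carbon dioxide and water (ENSMUSG00000027562, chromosome 3, 14886273 to 14900770). It had 50.4 FPKM in bile duct epithelium and 5.08 FPKM in pancreatic duct epithelium. Organoids 1, 2 and 3 of bile duct carried 235, 135 and 116 FPKM of Car2, those of pancreatic duct 169, 145 and 100.3 FPKM. The organoid groups overlapped and all 6 cultures lay above both epithelia. The difference from epithelium was 1.33 ± 0.58 in bile duct and 4.23 ± 0.43 in pancreatic duct (log2 scale, SD, n = 3 each). Without bile duct organoid 1 the bile duct value was 0.999, just short of 2-fold.

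Aqp1 and Aqp5 encode water channels, Aqp1 being also a product of endothelium and red cells. Aqp1 (ENSMUSG00000004655, chromosome 6, 55336432 to 55348555) had 263 FPKM in bile duct epithelium and 208 FPKM in pancreatic duct epithelium, the highest levels of the 10 genes there. Lower levels were read in culture, with 9.89, 31.5 and 14.3 FPKM for organoids 1, 2 and 3 of bile duct and 31.8, 12.0 and 144 FPKM for those of pancreatic duct. All organoids lay below both epithelia, with pancreatic duct organoid 3 closest to its own. The difference from epithelium was -4.18 ± 0.77 in bile duct and -2.68 ± 1.71 in pancreatic duct (log2 scale, SD, n = 3 each). The pancreatic duct value was -1.89 without organoid 2 and -3.59 without organoid 3.

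The markers of blood endothelium and red cells were lower together with Aqp1, as were those of other cells: all 8 smooth muscle and all 8 fibroblast markers were at least 2-fold lower in organoids of either organ, as were 8 of 8 leukocyte markers in bile duct and 7 of the 7 that passed the level filter in pancreatic duct. Of 10 blood endothelium markers, 10 were at least 2-fold lower in organoids of either organ, with Cldn5 at 0 in all 6 organoids and 9 of 10 under 1 FPKM in every organoid. For 8 red cell markers the sum was 346 FPKM in the epithelium of bile duct and 682 FPKM in that of pancreatic duct, with organoids at 0.134 to 6.68 FPKM. Their part in the epithelial Aqp1 level was not tested. In the organoids, Aqp1 was read at 9.89 to 144 FPKM while the endothelium list summed to 1.30 to 2.07 FPKM.

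Aqp5 (ENSMUSG00000044217, chromosome 15, 99590849 to 99594829) had 22.7 FPKM in bile duct epithelium and 3.07 FPKM in pancreatic duct epithelium. In culture Aqp5 stood at 15.2, 139 and 129 FPKM for organoids 1, 2 and 3 of bile duct and at 46.6, 18.3 and 159 FPKM for those of pancreatic duct. Bile duct organoid 1 lay below its epithelium and the other two above it. In pancreatic duct all 3 organoids lay above the epithelium. The difference was 1.22 ± 1.71 in bile duct and 3.47 ± 1.48 in pancreatic duct (log2 scale, SD, n = 3 each). Without bile duct organoid 1 the bile duct difference was 2.21, with both remaining cultures higher. The pancreatic duct difference was 4.18 without organoid 2 and 2.69 without organoid 3.

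Counted over the 10 genes, 2 were at least 2-fold higher in bile duct organoids than in their epithelium (Ano1 and Car2) and 2 lower (Slc26a3 and Aqp1). Of 15227 genes 38.8% were called there, 12.7% higher and 26.1% lower. In pancreatic duct 5 were higher (Cftr, Ano1, Slc4a4, Car2 and Aqp5) and 3 lower (Slc26a3, Sctr and Aqp1), against 40.4% of 14984 genes, 15.4% higher and 25% lower. In the same comparison 9 of 10 duct markers were higher, with a median of 3.46, and all 8 acinar markers that passed the level filter were lower, and the part of these cells in the 10 genes' differences was not tested. The level filter of 1 FPKM on either side left out Sctr in bile duct and Slc26a6 in pancreatic duct, and passed 9 of 10 in each organ. The median difference of the 10 genes was -0.33 in bile duct and 0.93 in pancreatic duct, and that of all genes kept was -0.07 and -0.05. With values as deposited, organoid levels lie higher by 0.27 and 0.28 on the log2 scale, and the lower genes were 56.6% and 51.4% of all called genes in place of 67.3% and 61.8%. No difference between organoids and epithelium of these 10 genes turned its sign under that choice. The difference between the organs in these values has no test here.

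**Figure D2:**
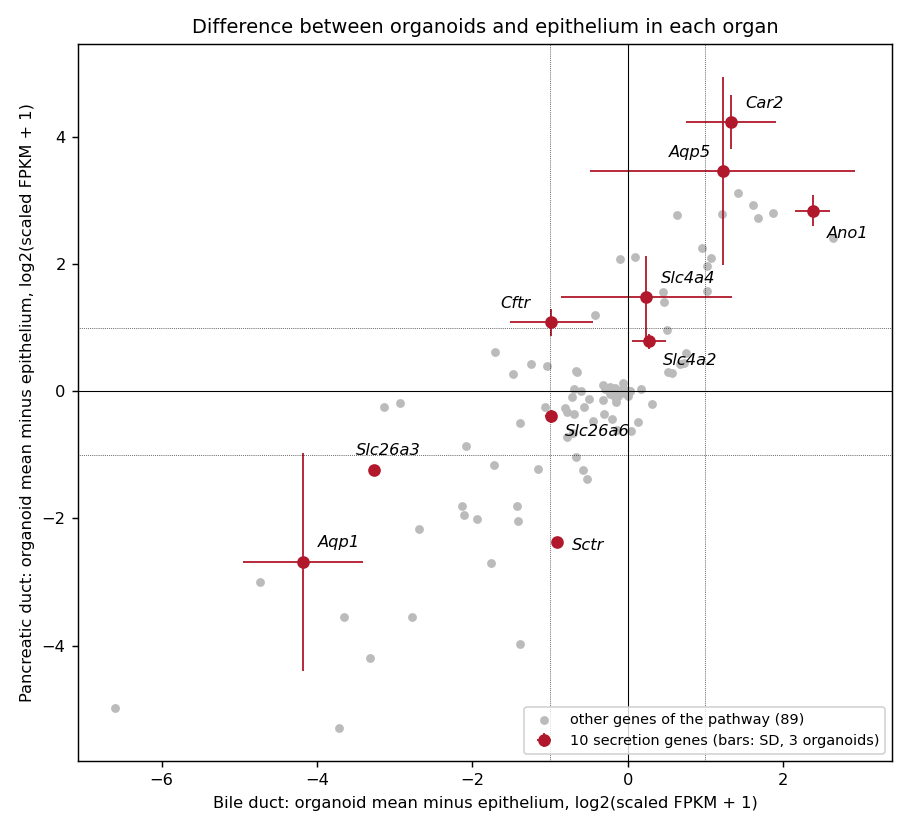
Difference between organoid mean and epithelium on the log2(scaled FPKM + 1) scale, bile duct on the horizontal and pancreatic duct on the vertical axis. Red points are the 10 secretion genes with SD over 3 organoids as bars, grey points are 89 other genes of the pathway, and dotted lines mark 2-fold; Cftr lies at -0.98 and 1.08, on the lower side for bile duct and the higher side for pancreatic duct.

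On the log2(scaled FPKM + 1) scale, the epithelia of the organs lay at least 2-fold apart in 6 of these genes. Of the 10, bile duct had at least 2-fold more of 5 (Cftr, Slc26a3, Slc4a4, Car2 and Aqp5) and at least 2-fold less of 1 (Sctr), where 13.7% of 15092 genes were called, 9.18% higher and 4.53% lower. In RPM, bile duct epithelium exceeded pancreatic duct epithelium 9.92-fold for Car2 (interval 8.53 to 11.6) and 9.31-fold for Cftr (interval 7.18 to 12.2). The ratio was 7.41 for Aqp5 (interval 5.84 to 9.53), and after Slc26a3 with the ratio of 6.24 given above came Slc4a4 at 2.44 (interval 2.21 to 2.69). Slc26a6 at 2.15 (interval 1.54 to 3.02), Ano1 at 1.62, Aqp1 at 1.27 and Slc4a2 at 1.25 followed. The median of the 10 genes was 0.87 on the log2 scale, against -0.03 for all genes kept and 1.64 for the duct markers, whose Krt19 stood at 432 and 83.8 FPKM. The intervals cover counting error, so they say nothing of how further animals would vary.

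The organoid groups, which had 3 cultures each, were compared with limma over 12106 genes. Of the 10 genes, 7 passed the filter of 1 FPKM in at least 3 organoids, and Sctr, Slc26a3 and Slc26a6 did not. After Benjamini-Hochberg adjustment in limma, 0 of the 7 passed 0.05, 0 had an unadjusted p under 0.05, and in 0 were the groups free of overlap. Among all 12106 genes these shares were 0%, 2.54% and 6.65%, and voom on recovered reads also gave 0 adjusted calls. The difference of Aqp1 was -1.17 for bile duct minus pancreatic duct (log2 scale, SE 0.87, 95% interval -3.29 to 0.94, limma adjusted p = 1.00). Without pancreatic duct organoid 3 it was -0.26, and without pancreatic duct organoid 2 it was -1.95.

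For Cftr, whose epithelial levels differed by 2.06 on the log2 scale, the organoid difference on that scale was -0.00 (SE 0.29, interval -0.71 to 0.71). Car2 differed by 0.19 (SE 0.35, interval -0.65 to 1.04) and Ano1 by 0.20 (SE 0.18, interval -0.23 to 0.62). Slc4a2 differed by -0.23 (SE 0.14, interval -0.57 to 0.11) and Slc4a4 by -0.14 (SE 0.61, interval -1.61 to 1.34). Aqp5 differed by 0.33 (SE 1.05, interval -2.21 to 2.88). Adjusted p-values of these genes in limma were 1.00 in each case. For the 3 genes not tested, levels in the organoid groups were 0.00901 ± 0.0156 and 0 FPKM for Sctr, 0.00588 ± 0.0102 and 0.0263 ± 0.0237 FPKM for Slc26a3, and 0.367 ± 0.0758 and 0.385 ± 0.122 FPKM for Slc26a6, in bile duct and pancreatic duct (SD, n = 3 each).

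**Figure D3:**
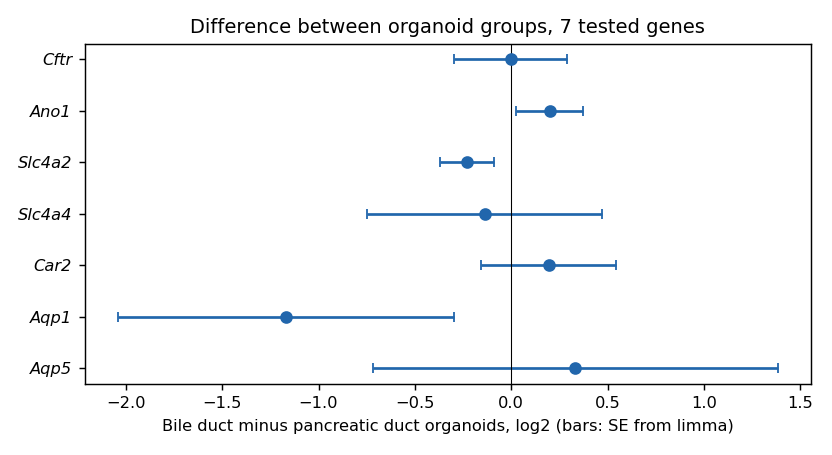
Difference between bile duct and pancreatic duct organoids on the log2(scaled FPKM + 1) scale for the 7 tested genes, with the limma standard error as bars (3 cultures per group). The bars of Aqp1, Aqp5 and Slc4a4 are the widest, and no gene passed the adjusted threshold.

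Single cultures of 1 organ differed most in the water channels and Slc4a4 among the 7 tested genes. The residual SD within organoid groups was 1.60 for Aqp5, 1.32 for Aqp1 and 0.92 for Slc4a4 on the log2 scale, against a median of 0.21 over all tested genes. Of the 12106 tested genes, 0.578% had a larger residual SD than Aqp5, 1.02% a larger one than Aqp1 and 3.48% a larger one than Slc4a4. Car2 (0.52), Cftr (0.41), Ano1 (0.23) and Slc4a2 (0.17) varied less. The highest culture exceeded the lowest 14.6-fold for Aqp1, 10.4-fold for Aqp5, 4.08-fold for Slc4a4 and 2.61-fold for Cftr.

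The cultures that were low for Aqp5 were the ones high for Slc4a4. Bile duct organoid 1 and pancreatic duct organoid 2 had the lowest Aqp5 values, the lowest Aqp1 values and the highest Slc4a4 values of the 6. Aqp5 was highest in pancreatic duct organoid 3 and bile duct organoids 2 and 3, and Aqp1 in pancreatic duct organoid 3. These cultures were described after their values had been seen, they are not groups of the study, and no test was made between them. The summed level of 8 proliferation markers was 259 FPKM in bile duct organoid 1 and 195 FPKM in pancreatic duct organoid 2, the lowest of the 6, and 314 to 428 FPKM in the others. Red cell markers summed to 2.16 and 6.68 FPKM in these cultures and to 0.134 to 0.271 FPKM in the other 4. Fibroblast markers summed to 2.30 to 2.71 FPKM in the 3 cultures highest for Aqp5 and to 0.150 to 0.401 FPKM in the other 3. Hepatocyte markers summed to 37.3 to 146 FPKM and 8.66 to 15.1 FPKM in the same order. Ttr alone made up 36.7 to 141 FPKM and 5.88 to 13.7 FPKM of these sums. Fgb of that list went the other way, with at most 0.0143 FPKM in the first 3 cultures and 0.256 to 2.85 FPKM in the others. The part of growth rate or of other cells in these levels was not tested.

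**Figure D4:**
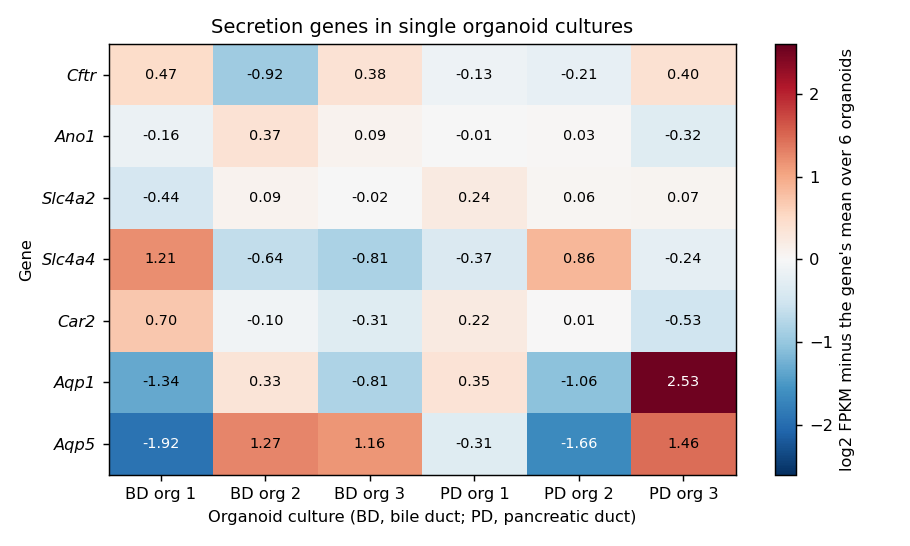
Log2 FPKM of 7 secretion genes in each organoid culture, minus the gene's mean over the 6 cultures (deposited values, red above and blue below the mean). Aqp5 stands at -1.92 in bile duct organoid 1 and -1.66 in pancreatic duct organoid 2, where Slc4a4 stands at 1.21 and 0.86.

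The rest of the pathway was followed in 90 further genes, of which 89 were in the table. The level filter passed 64 of them in bile duct, where 9 were at least 2-fold higher in organoids than in epithelium and 25 lower, against 12.7% and 26.1% of all genes. In pancreatic duct it passed 58, of which 16 were higher and 18 lower, against 15.4% and 25% of all genes. The median difference over all 89 genes was -0.30 in bile duct and -0.07 in the other organ. Of 13 receptors and ligands, 12 passed in bile duct, with 8 lower and 1 higher, and 10 in pancreatic duct, with 7 lower and 1 higher, against the same shares of all genes and with no test of the list. The higher one was P2ry2, a receptor for extracellular ATP that signals through calcium, at 3.20 FPKM in the epithelium of bile duct, 4.56 FPKM in that of pancreatic duct and 24.1 to 50.9 FPKM in the 6 organoids.

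Among the lower ones, named after their values were seen, was Vipr1, a receptor for vasoactive intestinal peptide, with 5.50 and 3.54 FPKM in the epithelia and at most 0.190 in an organoid. The muscarinic receptor gene Chrm3 had 2.12 and 1.15 FPKM in the epithelia and at most 0.118 in an organoid. Secretin itself, Sct, had 7.22 FPKM in bile duct epithelium and 0.201 FPKM in that of pancreatic duct, and no organoid exceeded 0.174. The neuropeptide gene Vip, at 1.42 and 12.7 FPKM, was listed at 0 in all 6 organoids. Acinar, blood endothelium, smooth muscle, fibroblast and leukocyte markers were lower in organoids too. The part of such cells in the levels of these receptors and ligands was not tested.

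Set against both epithelia at once, 11 of the 89 genes were higher in organoids and 19 lower, where 12.4% and 23.3% of all genes were. The genes named next were ranked by the smaller of their differences in the organs, called or not, where the higher side reached 10 FPKM in both organs, which leaves out many that were lower in both. Under this limit the widest higher levels after P2ry2 were those of Kcnn4, Ezr, Slc12a2 and Car9. Kcnn4, a potassium channel opened by calcium, was higher by 1.88 in bile duct and 2.80 in pancreatic duct on the log2 scale, and Slc12a2, which loads cells with chloride, by 1.42 and 3.13. Ezr, the membrane linker ezrin, was higher by 1.68 and 2.73, and Car9, a carbonic anhydrase of the cell surface, by 1.21 and 2.79. Under the same limit the widest lower levels were those of Car3, with -6.60 and -4.99 and 0 FPKM in all organoids, and of Adcy5, with -3.71 and -5.30. Prkar1a (-0.57 and -1.24), Atp1b3 (-0.30 and -0.36) and Ano6 (-0.20 and -0.43) came next under that limit and were not 2-fold lower in both organs. In deposited FPKM, Ano6 was higher in bile duct organoids than in epithelium (32.4 against 30.9) and Atp1b3 nearly equal (75.6 against 76.9), so the direction of Ano6 in bile duct turns without scaling. Below it, Car4 (-3.66 and -3.55), Aqp12 (-3.31 and -4.20) and Cckar (-2.77 and -3.55), chosen after their values were seen, were 2-fold lower in both.

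Between the epithelia, 65 of the 89 genes passed the level filter, and bile duct had at least 2-fold more of 19 and less of 3, against 9.18% and 4.53% of all genes. Among those with at least 10 FPKM on the higher side the widest in bile duct were Kcne3 (75.1 against 11.1 FPKM), Car8 (33.0 against 6.72 FPKM) and Car9 (16.5 against 4.44 FPKM). Vip (1.42 against 12.7 FPKM), Adcy5 (11.5 against 34.2 FPKM) and Slc4a3 (3.56 against 11.4 FPKM) were the 3 lower ones. Kcne3, a partner subunit of the potassium channel Kcnq1, stood at 50.0 to 108 FPKM in the organoids. Between the organoid groups, 41 of the 89 genes were tested, 0 had an adjusted p-value under 0.05 in limma, and 1 had an unadjusted p under 0.05, where 2.54% of all genes did. That gene was Stk39, a kinase that regulates ion transporters, with a difference of 0.55 that did not pass adjustment (log2 scale, SE 0.13, n = 3 each, limma adjusted p = 1.00).

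The genes whose pattern was most like that of Cftr over the 8 libraries, among 14919 genes that reached 1 FPKM in 2 or more libraries, were Ndufs4 (Pearson r = 0.945), Psmc6 (0.917), Gpx1 (0.913), Cep85 (0.909) and Cyb5r4 (0.892). For Sctr they were Siglecg, Ighv4-1, Cldn11, Susd5 and Olfr78, all with r of 1.00. Of the 8 libraries 6 share the culture medium, and the Sctr pattern is set by its 2 epithelial values, so these coefficients are a description only.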

How the data were processed

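Expression was read from the table of FPKM deposited by the authors, with 1 column per library, and 0 per-sample columns were left aside. The unit was inferred from the values, because neither the labels nor the file header name it. The submitters' processing notes name Bowtie2 2.2.3, HISAT2 2.1.0, TopHat2 and HTSeq 0.6.0 without their roles. The annotation release and strand setting are not given in the sources used here. Multiplied by exon length in GENCODE M21, the values of 92.5% of genes were whole multiples of a library's step in all 8 libraries within 0.05 of a read. For Aqp5, whose annotated exons differ, the shortest length giving whole reads was 1667 bases. The positions are GRCm38, since 28575 genes had identical coordinates in GENCODE M21.

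Samples were grouped by their labels. FPKM was scaled by a trimmed mean of log ratios (30% of ratios and 5% of levels trimmed), over genes with at least 1 FPKM in any of the 8 libraries, or in at least 3 organoids for the organoid comparison. The organoid comparison used limma 3.58.1 in R 4.3.3 with an intensity trend on log2(FPKM + 1), with Benjamini-Hochberg adjustment over all genes and a threshold of 0.05. The test was tried on simulated data, where recovery of changed genes was required only at a spread below that of Aqp1 and Aqp5. It does not show what the test can find at their spread. Scaling, pseudocount, filter, trend, replicate block, a voom fit on recovered reads and leaving out each organoid were alternatives. Ratios of reads used scipy 1.17.1. All 10 genes are named. Of the pathway list, the rule named the 5 widest differences in each direction in both organs and the 3 widest between the epithelia, with at least 10 FPKM on the higher side. Members and lists were chosen with earlier results of these data known. Motifs were searched on both strands of RefSeq windows.

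The labels do not say what organoids of the same number share, so numbers were not taken as pairs. Same-numbered organoids of the organs did not deviate together in every pair, which cannot show whether they share an animal or a batch.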

Additional observations from a re-analysis of the deposited data

Results flagged for a closer look

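The difference of Cftr between organoids and epithelium had opposite directions in the organs. It was -0.98 in bile duct, with 3 of 3 organoids lower, and 1.08 in pancreatic duct, with 3 of 3 higher (log2 scale). Every organoid lay between the epithelia, so both directions follow from the gap between these libraries and are not a separate result. The bile duct difference was under 2-fold, and this pair of directions was found for 2.2% of 14249 genes. With a single library per epithelium, this contrast between organs was not tested.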

How the results depend on the processing

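The number of genes with an adjusted p under 0.05 between the organoid groups was 0 with limma as reported and under the alternatives of scaling, pseudocount, filter, trend, voom and replicate block, and ranged from 0 to 11 when 1 organoid was left out, the 11 appearing without pancreatic duct organoid 3 (429 at an unadjusted p under 0.05). Leaving out bile duct organoid 1, 2 or 3 gave 1017, 160 or 189 genes with an unadjusted p under 0.05 in limma. Leaving out pancreatic duct organoid 1 or 2 gave 320 or 229. At an unadjusted p under 0.05, limma had 308 genes and voom on recovered reads 253. With the replicate block, 0 genes passed the adjusted and 283 the unadjusted threshold. The deviations of same-numbered organoids from their group means correlated at -0.106, -0.441 and 0.481. Those of differently numbered organoids ranged from -0.596 to 0.650, the last for bile duct organoid 1 with pancreatic duct organoid 2. These values cannot show what a number shares, and the numbers were not treated as pairs. Among the 10 genes, differences between organoid groups that turned sign did so only when 1 organoid was left out, and all remained short of the adjusted threshold. Over the organoids left out in turn, the values ranged from -0.20 to 0.31 for Cftr, from -0.78 to 0.25 for Slc4a4, from -0.14 to 0.42 for Car2, from -0.37 to 1.32 for Aqp5 and, with no turn, from -1.95 to -0.26 for Aqp1. A minimum of 10 FPKM tested fewer genes and lowered the number at least 2-fold apart from 2068 to 839 between the epithelia, from 5909 to 2773 in bile duct, from 6054 to 2986 in pancreatic duct and from 5423 to 2696 for all organoids against both epithelia. The shares of lower genes were then 52.3% in bile duct and 48.0% in pancreatic duct. That minimum leaves out Cftr, Slc26a3, Slc26a6 and Sctr everywhere and Slc4a4 between the epithelia, where it ends the call of Slc4a4. A pseudocount of 0.1 widened the differences of weak genes, to -5.42 for Sctr in pancreatic duct, -6.38 for Slc26a3 and -1.25 for Cftr in bile duct, and 1.80 for Cftr in pancreatic duct. Of 330 values of the 10 genes recomputed under alternatives, 292 moved by less than the spread between replicates or stayed on the same side of the threshold, 28 moved further, and the other 10 are the organoid-group values that turned sign. Among the 292, leaving out bile duct organoid 1 turned the uncalled Slc4a4 difference in bile duct to -0.39 and that of Cftr over both organs to -0.02. Depth limits Sctr and Slc26a3 in organoids, where single reads set the level.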
